A study of Homo sapiens with 3 samples.

Results

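The 10 human genes described here encode the Dickkopf proteins DKK1, DKK2, DKK3 and DKK4, the Dickkopf-like protein DKKL1, the Kremen receptors KREMEN1 and KREMEN2, the Wnt co-receptors LRP5 and LRP6, and CKAP4, a membrane protein that binds Dickkopf proteins at the cell surface. They were chosen by name, as all probes that the platform annotation assigns to them, and numbered 11 probes of 24454 gene probes and 10 genes of 17556. CKAP4 had 2 probes and each other gene 1. HSC-3, an established line from a squamous carcinoma of the tongue, was kept in DMEM with 10% serum, and its RNA was measured on 3 one-colour arrays. Untransfected cells gave 1 array, cells transfected with an expression plasmid of GFP, a fluorescent protein, gave another, and cells transfected with a plasmid of full-length, HA-tagged DKK3 gave the last. RNA was taken 24 hours after transfection, and the labels give no time for the untransfected cells. A treatment label also names C2C12, a mouse muscle line, whereas title, source and description of all 3 samples name the tongue line.

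Dickkopf proteins are secreted. DKK1 binds LRP5 and LRP6, which with a Frizzled receptor carry the signal of Wnt ligands into the cell, and with a Kremen it draws these co-receptors off the surface, so that β-catenin is degraded. DKK1 is itself a target gene of β-catenin, which makes it a feedback inhibitor. DKK3 is the divergent member of the family. It is often silenced in tumours and immortalised cells, does not share the strong LRP6 binding of DKK1, and in squamous carcinoma has been studied as a ligand of CKAP4, through which DKK1 and DKK3 can act on PI3K and AKT.

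Each group was 1 array with no replicate, so every difference describes these RNA samples and carries no p-value. Levels are intensities, and a difference is the log2 difference of background-corrected and quantile-normalized intensities. A probe counted as detected above the mean plus 2 SD of the blank spots, which is 40.8 for untransfected cells, 33.8 for GFP and 36.6 for DKK3. As a scale for size, the robust SD of the differences of all detected probes was 0.084 for DKK3 minus GFP, 0.079 for DKK3 minus untransfected and 0.084 for GFP minus untransfected. A robust SD of this kind is a spread over probes between 2 arrays. It holds real differences beside noise, so a difference that exceeds it is not thereby shown to be real. All 10 squamous epithelial markers were detected on all 3 arrays, keratin 5 at 12229 to 16709. Of 8 skeletal muscle markers, 6 were detected on all arrays, with a summed intensity above the blanks of 164 to 203, beside 62400 to 81200 for the squamous list. Among these muscle markers MYF5 was not detected, MYOD1 was detected in untransfected cells alone at 41.8, and MYOG was detected on all arrays at 34.9 to 44.1. Also detected on all arrays were DES at 91.1 to 106, PAX7 at 64.85 to 65.61, MYH3, ACTA1 and CKM. On all arrays 2 of 7 fibroblast, 3 of 6 endothelial and 4 of 7 leukocyte markers were detected, with sums of 153 to 185, 66.5 to 79.7 and 302 to 391. The markers detected were DCN at 151 to 170 (brighter probe) and PDGFRB at 65.8 to 74.3 for fibroblasts. For endothelium they were KDR at 64.7 to 74.1, CLDN5 at 56.8 to 65.8 and VWF at 35.1 to 45.0. For leukocytes they were CD68 at 277 to 350, CD14 at 67.9 to 74.1, LYZ and CD3E. COL1A1, COL1A2 and COL3A1 of fibroblasts, CDH5 of endothelium and PTPRC of leukocytes were not detected on any array. In cells measured in bulk, fewer expressing cells and less RNA per cell cannot be told apart.

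All 11 probes were detected on all 3 arrays, as were 16976 of the 24454. DKK2, DKK4 and LRP5 stayed at 1.16 to 1.31 times the detection limit everywhere, so their differences rest on a small signal. Between the DKK3 and GFP arrays the DKK3 probe was the only 1 of the 11 that differed by 2-fold, where 0.256% of 17579 tested probes did. At a smaller size, a log2 difference of 0.32, 3 of 11 passed, the transfected DKK3 among them, where 3.06% of all tested probes did. DKK3 and DKK1 were higher (1.29% of all) and KREMEN2 lower (1.77%). DKK1, at 0.33, lies close to that size and fell short of it in 7 of 13 alternative settings, whereas DKK3 passed in all 13 and KREMEN2 in all 12 that hold its spot. Without DKK3, whose plasmid was given, the 10 other probes split into 5 above and 5 below 0, ranged from -0.55 to 0.33 and had a median of 0.0018, beside -0.0013 for all tested probes.

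**Figure D1:**
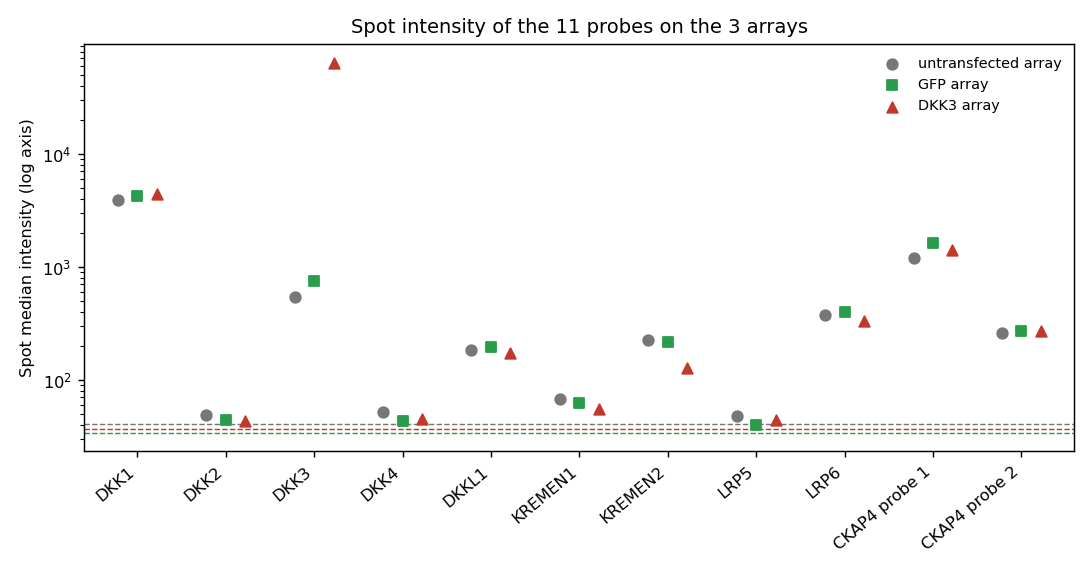
Spot median intensity (log axis) of the 11 probes, with 1 point for each array; dashed lines mark each array's detection limit. DKK3 on the DKK3 array, at 64328, lies far above its own 2 other points, KREMEN2 is lower there, and DKK2, DKK4 and LRP5 lie close to the limits on all arrays.

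DKK3, at chr11:11963036-12009745 of GRCh38.p14, is the ligand whose plasmid was transfected. Its probe read 539 in untransfected cells, 749 with GFP and 64328 with DKK3. The DKK3 array thus stood apart by far, and HSC-3 cells carried DKK3 signal of their own at 13.2 and 22.2 times the detection limit. The difference was 6.01 against GFP (64.4-fold) and 6.42 against untransfected cells (85.5-fold), rank 1 by size in both comparisons. Quantile normalization ties the brightest probe of each array to a common value, and the plain ratio of intensities above the mean of the blanks was 89.1 against GFP and 128 against untransfected cells. The probe cannot tell plasmid RNA from the cells' own. The cells' own level differed too, being 0.41 higher with GFP than without transfection (1.33-fold), a size that 1.78% of tested probes reached, while probes of like level varied by a robust SD of 0.202.

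The bright DKK3 spot had 8 direct neighbours in its block. 6 of them were tested and 5 of these differed by -0.04 to 0.03 between DKK3 and GFP. The exception, named after its value was seen, was the spot of the phosphatase CDC14A directly beside it, which read 38.0 and 29.9 on the untransfected and GFP arrays, below detection, and 58.4 on the DKK3 array. Of the 15 tested spots that share the DKK3 spot's column and row in another block, EPN3, an epsin that acts in endocytosis, differed by 5.60 and the others by -0.15 to 0.20. What part the DKK3 spot had in these values was not tested.

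By the distance between their differences from the untransfected array, over 3 arrays and 14542 probes, the genes most like DKK3 were EPN3 (distance 0.632 log2 units), the transcriptional corepressor NAB2 (2.52) and LDLRAD4 (2.74). None was within 0.1.

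DKK1, at chr10:52314281-52317657, encodes the classical LRP5/6 antagonist. Its probe read 3879 in untransfected cells, 4199 with GFP and 4422 with DKK3, 95 to 124 times the detection limits. The spot was thus strong on all 3 arrays and brightest with DKK3. The normalized difference was 0.33 between DKK3 and GFP (1.26-fold), rank 506 of 17579, and 0.38 between DKK3 and untransfected cells (1.30-fold). GFP minus untransfected was 0.051, inside the robust SD of 0.19 of probes near its level. Against GFP the difference exceeded the robust SD of 0.152 near its level. The plain ratio of intensities above the blanks, with no scaling between arrays, was 1.05. On that scale LRP6 stood at 0.819 and DKKL1 at 0.845, at normalized differences of -0.061 and -0.018. With median scaling the DKK1 difference was 0.20. The other 79 tested spots of the DKK1 block and row had a median of 0.06.

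The genes nearest to DKK1 in these differences were the matrix crosslinking enzyme LOX (distance 0.0266), the proline synthesis enzyme ALDH18A1 (0.0276) and the collagen-binding integrin subunit ITGA2 (0.0341). DKK1 had company, with 70 of 14542 probes within 0.1.

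The promoters of DKK1 and CKAP4, the members besides DKK3 that were higher by 0.32 or more in a comparison, are shown because the DKK1 promoter carries the core letters bound by the β-catenin partners LEF1 and TCF and that of CKAP4 does not. Each is the 250 bases before the gene's start in RefSeq, GRCh38.p14, for DKK1 the plus strand of chr10:52314031-52314280 and for CKAP4 the minus strand of chr12:106248021-106248270. DKK4 was not looked up, and of the 9 members looked up, 4 had an entry. Capitals mark the LEF/TCF core TCAAAG, the TATA box TATAAA and the GC box GGGCGG, searched on both strands with no overlap between them.
DKK1: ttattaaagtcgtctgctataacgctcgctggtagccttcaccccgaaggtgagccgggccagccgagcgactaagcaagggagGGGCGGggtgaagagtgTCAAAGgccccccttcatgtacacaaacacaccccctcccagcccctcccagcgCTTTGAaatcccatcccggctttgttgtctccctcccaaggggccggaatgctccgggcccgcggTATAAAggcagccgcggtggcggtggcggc
CKAP4: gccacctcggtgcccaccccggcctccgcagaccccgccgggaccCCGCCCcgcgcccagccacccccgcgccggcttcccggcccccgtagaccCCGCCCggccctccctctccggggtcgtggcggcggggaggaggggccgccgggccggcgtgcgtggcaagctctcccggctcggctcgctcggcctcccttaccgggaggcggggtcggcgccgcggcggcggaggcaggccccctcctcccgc
The DKK1 window held 2 LEF/TCF cores, starting 149 and 95 bases before the gene's start, a TATA box starting 30 bases before it and 1 GC box. The CKAP4 window held 2 GC boxes and neither of the other motifs. The windows of DKKL1 and LRP5, the other members with an entry, likewise held no LEF/TCF core and no TATA box. Among 35114 such windows, 11.2% held the LEF/TCF core, 10.7% the TATA box and 42.6% the GC box. G and C made up 62.8% of the DKK1 window and 83.6% of the CKAP4 window, beside a median of 58.0% over all windows. A match describes letters in this window, not a bound site.

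DKK2, which can activate or inhibit LRP6 depending on the Kremen present, read 49.1 on the untransfected, 44.3 on the GFP and 42.8 on the DKK3 array. DKK4, another LRP5/6 antagonist and target of β-catenin, read 52.1, 42.8 and 45.3 in that order. DKKL1, a relative of DKK3 known mainly from testis, read 183, 194 and 172. None of the 3 genes differed between DKK3 and GFP by more than the -0.067 of DKK2, which 44.4% of tested probes reached. That exceeded the robust SD of 0.045 near the level of DKK2. The largest of their other differences, DKKL1 with GFP against untransfected cells, was 0.07. The DKK2 sign turned with median scaling and with scaling to the 75th percentile, and in the authors' deposited table DKK2 stood at 7, 7 and 5 on the untransfected, GFP and DKK3 arrays. Subtracting the blank mean without an offset gave -0.33 against GFP, so for so dim a probe the size depends on the background step.

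KREMEN2, at chr16:2964275-2968380, 1 of the receptors through which DKK1 removes LRP6 from the surface, was the member furthest below the other arrays. It read 223 in untransfected cells, 214 with GFP and 126 with DKK3. The first 2 values lie close together and the DKK3 array lies below both. The difference was -0.55 against GFP (1.46-fold lower), which 0.762% of tested probes reached in size, and -0.62 against untransfected cells (1.53-fold lower). Both exceed the robust SD of 0.132 and 0.136 near its level, and GFP minus untransfected was -0.067. The plain ratio of intensities above the blanks, DKK3 over GFP and with no scaling between arrays, was 0.507. That ratio was also below 1 for members with normalized differences near 0. It was 0.819 for LRP6, 0.845 for DKKL1 and 0.863 for the brighter CKAP4 probe. With scaling, the alternative settings gave log2 differences of -0.77 to -0.45 for KREMEN2.

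The KREMEN2 spot lies in block 22, and blocks 22 to 24 were lower on the DKK3 array as a whole. There 8.25% of 2193 tested probes were lower than with GFP by 0.32 or more, against 0.845% of 15386 in the other blocks, with medians of -0.046 and 0.0032. In those 3 blocks, 40 of 2192 other probes were as low as KREMEN2 or lower. In its own block and row, 1 of 79 was, and the median of the 79 was -0.099. With block and row medians subtracted, KREMEN2 stood at -0.45 against GFP and -0.49 against untransfected cells. What part the position on the array had in the KREMEN2 difference was not tested further, and no other KREMEN2 probe was on the array.

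KREMEN1, the other Kremen receptor, read 68.0 in untransfected cells, 61.8 with GFP and 54.9 with DKK3, 1.5 to 1.83 times the detection limits. Its differences were -0.11 against GFP and -0.098 against untransfected cells, which 27.8% and 31.2% of tested probes reached, and GFP minus untransfected was 0.011. The DKK3 array was again the lowest, by little more than the robust SD of 0.071 and 0.06 near its level. The KREMEN1 spot lies in block 3, outside the low blocks. Still, the other 54 tested spots of its block and row had a median of -0.043 against GFP. With block and row medians subtracted, KREMEN1 stood at -0.064 against GFP, inside the robust SD near its level, and at -0.1 against untransfected cells. Above the blanks, with no scaling between arrays, KREMEN1 held 0.677 of its GFP value, where LRP6 held 0.819. With scaling, the alternative settings gave log2 differences of -0.35 to -0.049 for KREMEN1. In the authors' deposited table KREMEN1 stood at 16 without transfection, 14 with GFP and 11 with DKK3.

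LRP6 read 376 on the untransfected, 396 on the GFP and 334 on the DKK3 array. All its differences, from -0.061 to 0.038, lie inside the robust SD of 0.165 to 0.182 near its level, so its arrays did not differ beyond that scale. LRP5 read 47.3, 39.9 and 43.6, next to the detection limits. DKK3 minus GFP was 0.04 beside a robust SD of 0.042 near its level, DKK3 minus untransfected 0.055 beside 0.039, and GFP minus untransfected 0.016 beside 0.038. In the authors' deposited table LRP5 stood at 6, 5 and 6, steps too coarse to order the arrays.

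CKAP4, at chr12:106237881-106248020, was measured by 2 probes that did not behave alike. CKAP4, known for shaping endoplasmic reticulum sheets and for binding DKK1 and DKK3 at the surface, read 1187 on the untransfected, 1625 on the GFP and 1411 on the DKK3 array with the brighter probe. That probe was higher on both transfected arrays, by 0.35 with GFP (1.28-fold) and 0.37 with DKK3 (1.29-fold), and differed by 0.022 between them. The first 2 of these differences rest on the same untransfected spot. The dimmer probe read 258, 272 and 269 in the same order. Its differences were 0.046 with GFP and 0.19 with DKK3 against untransfected cells and 0.14 between DKK3 and GFP. The robust SD near their levels ran from 0.154 to 0.203. The brighter probe exceeded it against untransfected cells on both transfected arrays, at sizes that 2.92% (GFP) and 3.72% (DKK3) of tested probes reached. The dimmer probe exceeded it only in DKK3 minus untransfected, at a size that 13.9% reached. The sign of the brighter probe's difference between DKK3 and GFP turned in 5 of 13 alternatives.

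**Figure D2:**
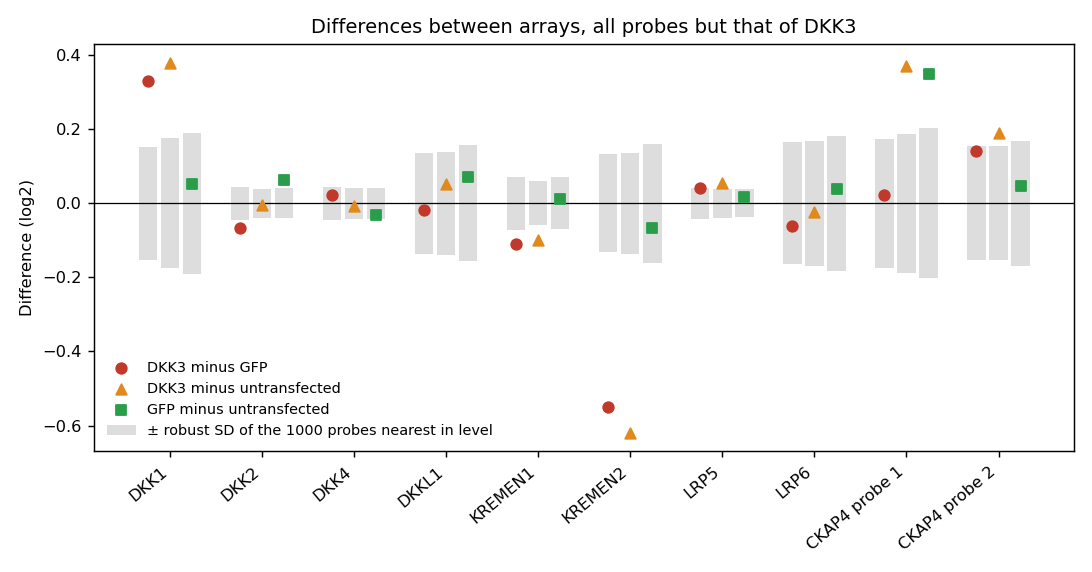
Log2 differences between the arrays for the 10 probes other than DKK3, with 1 point for each comparison; grey bars span plus and minus the robust SD of the 1000 tested probes nearest in level. DKK1 lies above its bars and KREMEN2 below them in both comparisons with the DKK3 array, and CKAP4 probe 1 lies above them on both transfected arrays against untransfected cells. DKK2, KREMEN1, LRP5 and CKAP4 probe 2 also lie outside their bars in at least 1 comparison.

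Against untransfected cells, the DKK3 array had 1 of 11 probes at 2-fold, DKK3 itself (0.292% of 18121 tested probes). At 0.32 it had 4 of 11 (5.12%). The transfected DKK3, DKK1 and the brighter CKAP4 probe were higher (2.66% of all) and KREMEN2 was lower (2.46%). The GFP array had 0 of 11 at 2-fold (0.254% of 18076) and 2 of 11 at 0.32 (3.94%), DKK3 and the brighter CKAP4 probe, both higher (2.2% of all), with none lower (1.74%). The brighter CKAP4 probe fell short of 0.32 in 2 of 13 alternatives in each of these comparisons, at 0.31 with DKK3 and 0.30 with GFP once block and row medians were subtracted, and at 0.19 and 0.20 in the authors' deposited table. DKK1 against untransfected cells fell short in 3 of 13 and DKK3 with GFP in 1, at 0.24 in the authors' deposited table. The comparisons share arrays, so DKK1 and KREMEN2, high or low on the DKK3 array, appear in both comparisons that hold it. Likewise the brighter CKAP4 probe, low on the untransfected array, appears in both comparisons that hold that array. In the authors' deposited table KREMEN2 stood at 95, 78 and 46 on the untransfected, GFP and DKK3 arrays, a log2 difference of -1.05 from untransfected cells, which makes 2 probes at 2-fold. That table's differences from untransfected cells had a median of -0.25 over all probes, and with it subtracted KREMEN2 stood at -0.79.

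**Figure D3:**
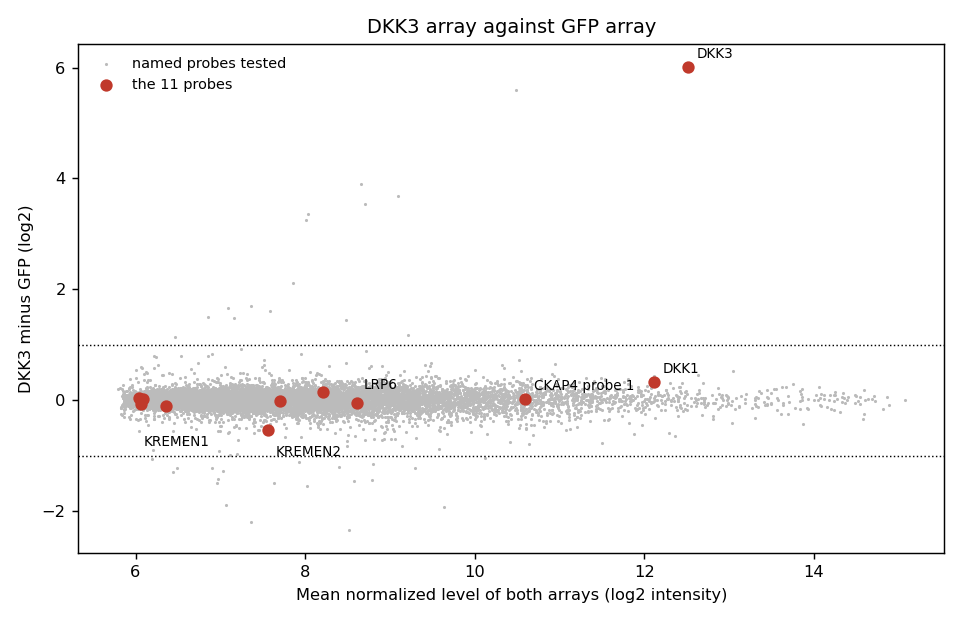
Log2 difference DKK3 minus GFP against the mean normalized level of both arrays, for all tested probes with a gene name (grey) and the 11 probes (red); dotted lines mark 2-fold. DKK3 stands at 6.01, KREMEN2 at -0.55 lies near the lower edge of the cloud, and DKK1 at 0.33 near its upper edge among the bright probes.

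The other genes of the pathway were counted per gene, over the detected probes. Among all 13376 named genes tested between DKK3 and GFP, 171 were higher and 219 lower by 0.32 or more, and the median was 0.00034. Of the other secreted Wnt antagonists, 7 of 15 genes were tested and none passed 0.32 (median -0.032). The Wnt deacylase NOTUM stood lowest, at -0.17, with its probes at -0.17 and -0.18. From untransfected cells NOTUM differed by -0.09 with DKK3 and 0.09 with GFP. SFRP2, which binds Wnt ligands, and sclerostin (SOST), which binds LRP5 and LRP6, were at -0.036 each. The list's median ranged from -0.23 in the authors' deposited table to 0.06 with 75th percentile scaling. None of the tested genes was counted as passing in any alternative, though the lowest value of SFRP2, -0.32, lay at the limit itself. SFRP1, SFRP4, SOSTDC1 and APCDD1 were below detection on every array.

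Of the other receptors and the proteins that control LRP5/6 and Frizzled at the surface, 22 of 27 genes were tested and none passed in the main setting (median 0.02). PORCN, the acyltransferase of Wnt ligands, stood at -0.30, the R-spondin RSPO2 at -0.19 and the receptor FZD6 at 0.18. From untransfected cells PORCN differed by -0.15 with DKK3 and 0.14 with GFP, and FZD6 by 0.048 and -0.13. PORCN passed 0.32 in 6 of 12 alternatives, ranging from -0.45 to -0.22. RSPO2, whose detected probe read 42.8, 42.3 and 36.4, the last below detection, passed in 5 of 12, ranging from -1.58 in the authors' deposited table to -0.072 with block and row medians subtracted. The spots of PORCN and of that RSPO2 probe lie in block 24. MESD, the chaperone that folds LRP5 and LRP6, was at 0.14. From untransfected cells it differed by -0.13 with DKK3 and -0.27 with GFP.

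Of the intracellular genes that carry the signal from LRP5/6, 21 of 26 were tested, 2 were higher and 1 lower by 0.32 or more (median -0.0063). β-catenin itself, CTNNB1, read 201 in untransfected cells, 161 with GFP and 202 with DKK3. GFP was the low array. DKK3 minus GFP was 0.41 and DKK3 minus untransfected 0.14. GSK3B, a kinase that marks β-catenin for degradation and also phosphorylates LRP6, read 553, 664 and 741 and was higher by 0.34. Its relative GSK3A stood at -0.24, with 1 probe at -0.42, its spot in block 23, and the other at -0.056. CSNK1G2, a membrane-bound casein kinase of the family that phosphorylates LRP6, was at -0.36, with its spot in block 22. With block and row medians subtracted it stood at -0.26 and no longer passed, and GSK3B fell short in 3 of 13 alternatives, at 0.27 with median scaling. CTNNB1 passed in all 13. BCL9L, a β-catenin coactivator at -0.30, passed in 9 of 13. It read 327 in untransfected cells, 405 with GFP and 285 with DKK3. Here GFP was the high array, and DKK3 minus untransfected was -0.046.

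The targets of β-catenin that act as feedback regulators gave 10 tested genes of 12, DKK1 among them, with DKK1 the 1 gene past 0.32 (median -0.034). AXIN2, RNF43, ZNRF3, NOTUM, LGR5, LEF1 and APCDD1 also stand in another of the lists. Of the 10, 2 were above 0, where 50.2% of all named genes were. Against untransfected cells, 5 of the 10 were above 0 with DKK3 (47.1% of all) and 8 with GFP (47.3%). AXIN2, the most used reporter of this pathway, read 46.4, 38.6 and 40.4, close to the limits, and differed by -0.012 between DKK3 and GFP. ZNRF3, a ligase that removes Frizzled and LRP6, was at -0.081, and SP5 at -0.059. The list's median ranged from -0.23 in the authors' deposited table, through -0.14 with the blank mean subtracted, to 0.029 with median scaling and 0.048 with 75th percentile scaling, settings in which the median of all tested probes was 0.029 and 0.048. RNF43, a ligase of the same kind as ZNRF3, was at 0.04.

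Of the other LDL receptor family, to which LRP5 and LRP6 belong, 8 of 13 genes were tested and none passed (median 0.048). LRP8 stood at 0.13, LRP10 at 0.11 and LRP11 at 0.094. Of the proteins that shape the endoplasmic reticulum beside CKAP4, 10 of 11 were tested, with 1 higher and 1 lower by 0.32 or more (median 0.045). The tubule-forming reticulons RTN4 and RTN3 stood at 0.37 and -0.38, and ARL6IP1 at 0.18. Against untransfected cells RTN4 was at 0.13 with DKK3 and -0.24 with GFP. RTN3 was at -0.3 and 0.087 in that order, and ARL6IP1 at -0.27 and -0.45. The RTN3 spot lies in block 24, and with block and row medians subtracted RTN3 stood at -0.27 and no longer passed. RTN4 fell short with median scaling, at 0.26, and with 75th percentile scaling.

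**Figure D4:**
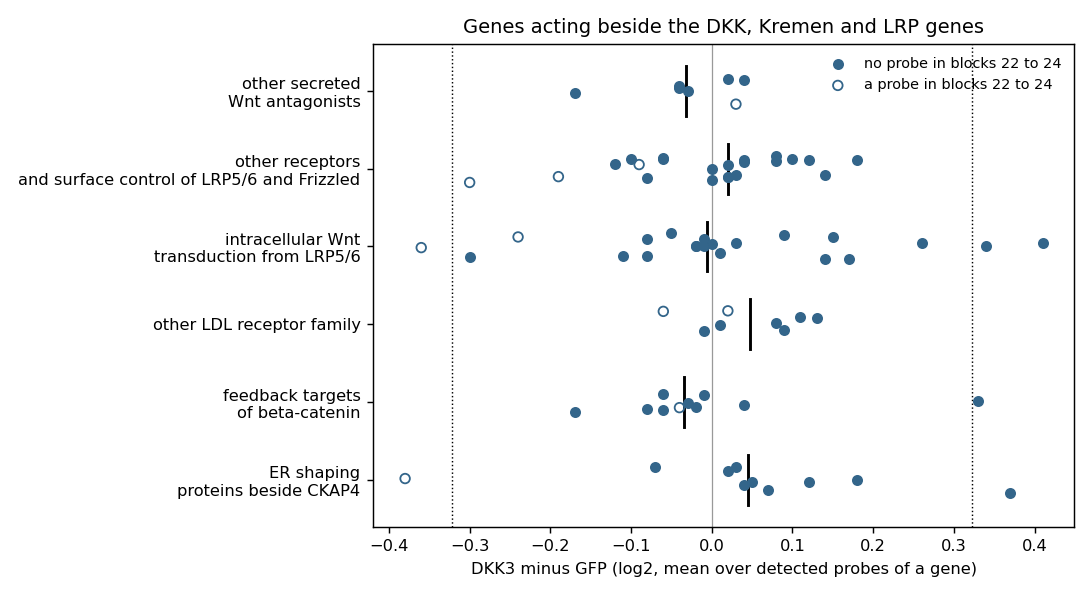
DKK3 minus GFP (log2) for each tested gene of the 6 lists, with 1 point per gene, open where a probe of the gene lies in blocks 22 to 24; the thick bars are medians and the dotted lines mark 0.32 either way. The medians lie between -0.034 and 0.048, and the lowest genes of the receptor, transduction and endoplasmic reticulum lists are open points.

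Other processing settings moved the members' differences between DKK3 and GFP as follows. DKK1 was above 0 in all 13 alternatives, from 0.20 to 0.34 against GFP, and KREMEN2 below 0 in all 12 that hold its spot, from -0.77 to -0.45. KREMEN1 was below 0 in all 13, from -0.35 to -0.049, and LRP6 likewise, from -0.12 to -0.025. In 3 to 4 alternatives that remove the blank level, KREMEN1 and DKK2 also passed 0.32, where 13.8% to 15.6% of all tested probes did. These ranges show how far the processing of the same arrays moves a value and not how a further culture would differ.

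**Figure D5:**
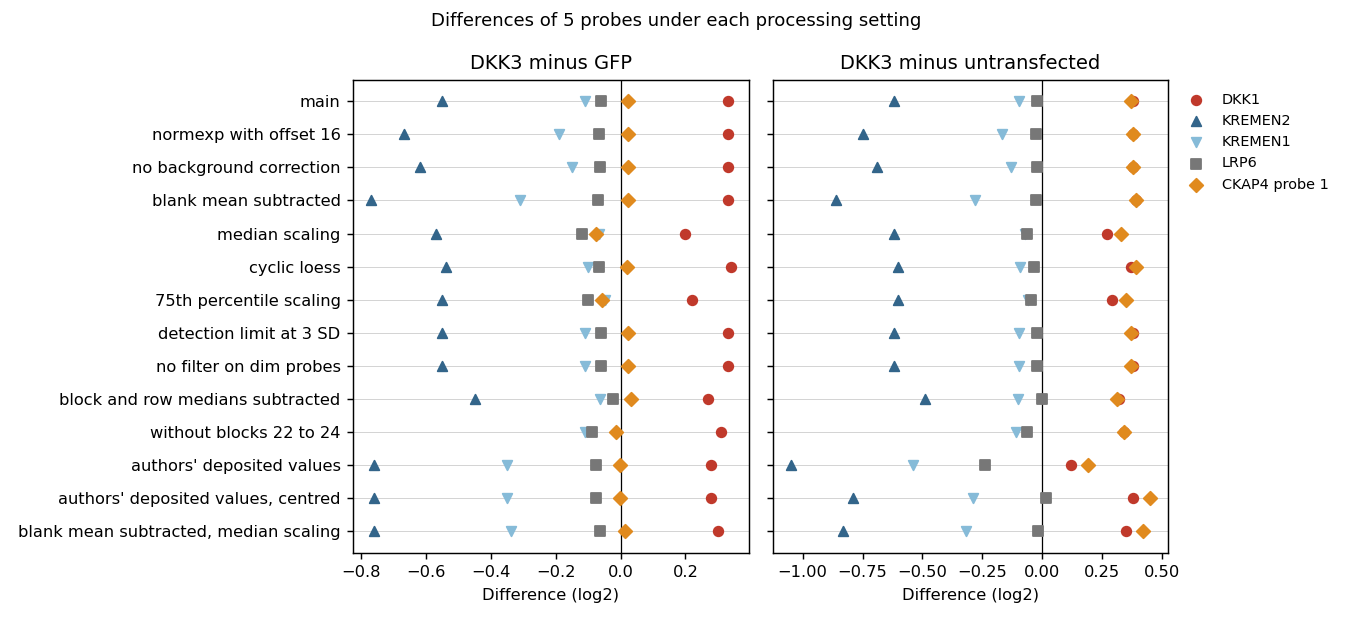
Log2 differences of 5 probes from GFP (left) and from untransfected cells (right) under the main setting and each alternative, 1 row each. KREMEN2 lies left of all others in each row that holds it, DKK1 lies at 0.20 to 0.34 on the left, and CKAP4 probe 1 lies near 0 on the left and above 0 on the right.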

How the data were processed

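Per the labels, total RNA was amplified, labelled with Cy5 and fragmented as the array's maker prescribes. Per the file headers, the deposited intensity of each spot is a median merged from 3 scanner gains by least-squares lines. The column headed as background followed the spot itself and was not subtracted. The authors' deposited table holds whole numbers that follow the spot intensity on a straight line with its 0 near the blank mean of each array and a median of 25, as found by comparison with the spots.

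All spots were corrected with normexp (offset 50, limma 3.58.1, R 4.3.3), control spots and 6 spots marked faulty were left out, and the 24454 gene probes were then quantile normalized before taking log2. Differences were called at 2-fold, and counted at a log2 difference of 0.32 as a second rule of size, where a probe was detected on at least 1 array compared. The steps were tested on simulated data in which only probes of middle intensity were changed. That test does not cover dim probes or a spot as bright as that of DKK3. The offset shrinks log2 differences of dim probes. With 1 array per group there is no test, and precision is limited by that number.

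Gene names came from the platform annotation, updated through synonyms in RefSeq (GRCh38.p14). Named were all members, the 3 genes nearest to DKK3 and to DKK1, up to 3 genes per list with the largest DKK3 minus GFP difference, the cell type markers, and further list genes chosen after their values were seen (SFRP1, SFRP4, SOSTDC1, APCDD1, MESD, AXIN2, SP5, RNF43, LGR5, LEF1, BCL9L, GSK3A). The members and lists were chosen with earlier results of these data known. 11 planned and 2 added alternatives were run.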

Additional observations from a re-analysis of the deposited data

How the results depend on the processing

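No paired analysis was possible because each group is 1 array, which also leaves no replicate to omit. DKK3 stayed 2-fold higher in all 13 alternatives. Against GFP its difference of 6.01 became 6.12 with the blank mean subtracted, 6.50 with median scaling, 6.63 with cyclic loess, 6.52 with 75th percentile scaling, 6.68 with the authors' deposited values, centred or not, and 6.70 with the blank mean subtracted and median scaling. Against untransfected cells its 6.42 became 6.51 with an offset of 16, and 6.56, 6.94, 7.02, 6.95, 6.93 (7.18 centred) and 7.15 in the order given. By its construction quantile normalization pulls the brightest probe in. The number of probes at 2-fold stayed at 1, 1 and 0 in all alternatives except the authors' deposited values, where it was 2 for DKK3 minus untransfected. Centring that table, and subtracting the blanks with median scaling, were chosen after seeing the data. Leaving out blocks 22 to 24 removes KREMEN2. Dim signal limits DKK2, DKK4 and LRP5. The DKK2 difference from GFP changed sign in 2 of 13 alternatives. Those of DKK4 and LRP5 did not, though DKK4 stood at 0 in the authors' deposited values. Against untransfected cells DKK2 and DKK4 each changed sign in 3 of 13, and LRP5 came to 0 in the authors' deposited values.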
